A study of Homo sapiens with 4 samples.

Results

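The genes described here are 50 factors of the epithelial-mesenchymal transition, extracellular matrix proteins, matrix proteases with their inhibitors, and integrins, read in Huh7, a human hepatocellular carcinoma cell line. They are a fixed list of names and were not chosen by how they differed between the groups. Earlier results of these data were known when the list was made. Cells transfected with pcFLAG-hSTYK1, a plasmid for human STYK1, a receptor-like kinase, were compared with cells transfected with the plasmid pcFLAG. Each group had 2 arrays, labelled by replicate number, and no other treatment or time is given in the labels. RNA was amplified, labelled with biotin and hybridised to whole-transcript arrays, and each array gave a log2 signal for 53617 probe sets, or 22395 named genes. Of the 50 listed genes, 48 had a probe set of their own, and the brightest over the 4 arrays stood for the gene. COL3A1 and ITGA1 had only a probe set that also lists another gene, so no value is given for them.

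In an epithelial-mesenchymal transition, transcription factors of the SNAI, ZEB and TWIST families repress epithelial genes, and cells take on mesenchymal proteins such as vimentin and a matrix rich in fibronectin and fibrillar collagen. Epithelial cells instead rest on a basement membrane, a sheet of laminins, type IV collagen, nidogen and heparan sulfate proteoglycans, which they grip through integrins, paired alpha and beta receptor chains. Matrix metalloproteinases cut this matrix and TIMP proteins inhibit them. In liver cancer these genes are studied for invasion and spread.

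Signals had to be told from background first. The floor of an array was the level that 95% of its 462 probe sets for olfactory receptors, which liver cells are not thought to use, did not exceed. The value was 0.75 and 0.77 on the pcFLAG-hSTYK1 arrays and at 0.75 and 0.77 on the pcFLAG arrays. A gene counted as above the floor when its mean over the 4 arrays exceeded the mean floor of 0.76, which 11198 of 22395 genes did. Among the 48 measured members 27 were above the floor, 16 of them by more than 1 log2 unit, and 21 were not. The members nearest to it were TAGLN, 0.01 above on average, and CD44, 0.02 below. Of 3 keratins read for comparison, KRT8 and KRT18 averaged 1.22 and 1.69, within 1 log2 unit of the floor, and KRT19 averaged 3.21. A signal near or under the floor does not show that a gene is silent, and the response of each probe set was not tested.

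STYK1 checked the labels. It read 7.40 and 7.86 on the pcFLAG-hSTYK1 arrays, against 0.26 and 0.61, under the floor, on the pcFLAG arrays. With the floors of the pcFLAG arrays put in place of their values, that is at least 117-fold higher. The fitted difference of the values themselves was 7.19 (limma, adjusted p = 0.0373), a call that no fit without one of the 4 arrays kept. Hepatocyte and liver cancer markers were above the floor for 8 of 8 genes, with summed linear signals of 5007 and 5179 on the pcFLAG-hSTYK1 arrays and 4901 and 4810 on the pcFLAG arrays. Fibroblast and stellate cell markers were above it for 1 of 7, with sums of 10.0 and 10.3 against 10.5 and 11.2, and endothelial markers for 0 of 5, with sums of 6.99 and 6.85 against 7.11 and 7.10. The exception, desmin (DES), a muscle and stellate cell filament, read 0.54 and 0.63 on the pcFLAG-hSTYK1 arrays and 0.94 and 1.24 on the pcFLAG arrays. Its difference was −0.50, larger than that of any member (limma, unadjusted p = 0.0128, adjusted p = 0.98). PDGFRB, not above the mean floor, was also lower without overlap, at 0.57 and 0.73 against 0.75 and 0.86. FAP, under the floor on all 4 arrays, was higher without overlap, and the other measured genes of this marker class overlapped. The fibroblast and endothelial sums include every measured gene, so the endothelial sums hold only genes that were not above the floor. Immune markers were above the floor for 3 of 6, namely LYZ, CD68 and CD14, with sums over all 6 of 290 and 263 against 268 and 266, while the leukocyte antigen gene PTPRC read at most 0.46 on any array. The part of DES and PDGFRB in the results below was not tested.

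Across the 48 measured members, 0 passed an adjusted p under 0.05 (limma, over all probe sets), where 0.00187% of all probe sets did. That share is 1 of 53617 probe sets, the one of STYK1, and the next smallest adjusted p was 0.11. The smallest adjusted p of a member was 0.98. An unadjusted p under 0.05 was met by 2 of 48, MMP14 and ITGB5, both lower, which is 4.17% against 3.72% of all named genes (1.93% lower). No member differed by 0.5 log2 units or more. Over the 27 above the floor, 15 differences lay above 0 and 12 below, where 51.8% of genes above the floor lay above 0. Their median was 0.02 and the median size was 0.08, against 0.01 and 0.10 over all genes above the floor. The groups did not overlap for 11 of the 27, 6 higher and 5 lower, a share of 40.7% against 33.0% of genes above the floor (17.1% higher and 15.8% lower). In RNA of a whole culture, fewer cells with a transcript and less of it per cell cannot be told apart, and the labels give no share of transfected cells. With 2 arrays a group the intervals are wide: over these 27 genes the 95% bounds reached from −0.90 for ITGA2 to 0.65 for ITGA6. SE below is the standard error of a fitted difference.

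**Figure D1:**
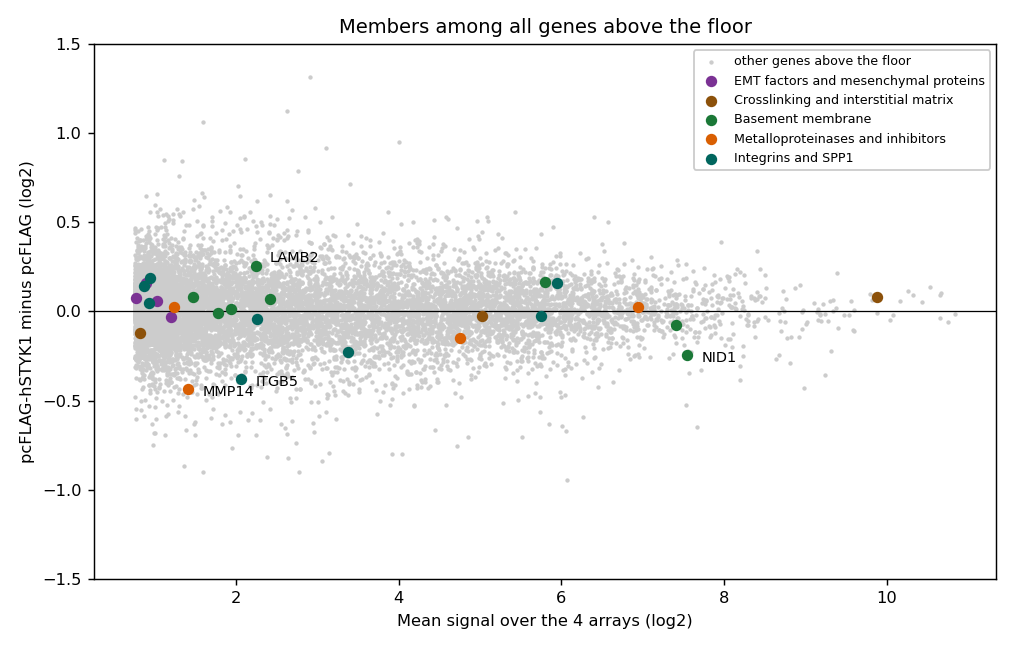
Difference between the groups (log2, pcFLAG-hSTYK1 minus pcFLAG) against mean signal (log2) for 11197 genes above the floor, in grey, with the 27 members above the floor in colour by role. STYK1, at 7.19, lies beyond the axis limit of 1.5. The members lie within the cloud of the other genes, with MMP14 and ITGB5 lowest at −0.44 and −0.38 and LAMB2 highest at 0.26.

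The transcription factors of the transition were dim or at background in both groups. ZEB1, a repressor of E-cadherin, read 1.25 and 1.14 on the pcFLAG-hSTYK1 arrays and 1.36 and 1.09 on the pcFLAG arrays, a difference of −0.03 (SE 0.13). SNAI1, or Snail, another repressor of E-cadherin, read 1.22 and 0.89 against 0.82 and 1.17, a difference of 0.06 (SE 0.18). For both factors the groups overlapped, and the replicates of a group lay further apart than the groups did. SNAI2, TWIST1, TWIST2 and ZEB2 were not above the floor. SNAI2 exceeded its array's floor on pcFLAG-hSTYK1 replicate 1 alone, at 0.90 against 0.44 on replicate 2, and so did ZEB2, at 0.80 against 0.63. TWIST1 and TWIST2 lay under it on all 4 arrays.

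Mesenchymal proteins were likewise near background. VIM, the intermediate filament vimentin, read 0.94 and 1.01 on the pcFLAG-hSTYK1 arrays and 0.89 and 0.74 on the pcFLAG arrays, the last value under that array's floor. Its groups did not overlap, with a difference of 0.16, an SE of 0.10 and a 95% interval of −0.10 to 0.42 that includes 0. TAGLN, the actin-binding protein transgelin, read 0.73 and 0.89 against 0.71 and 0.77, so 1 array of each group was above its own floor. S100A4, a calcium-binding protein of motile cells, and ACTA2, smooth muscle actin, lay under the floor on all 4 arrays. Of the 10 genes in this class 4 were above the floor, each within 1 log2 unit of it, and 0 met an unadjusted p under 0.05.

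**Figure D2:**
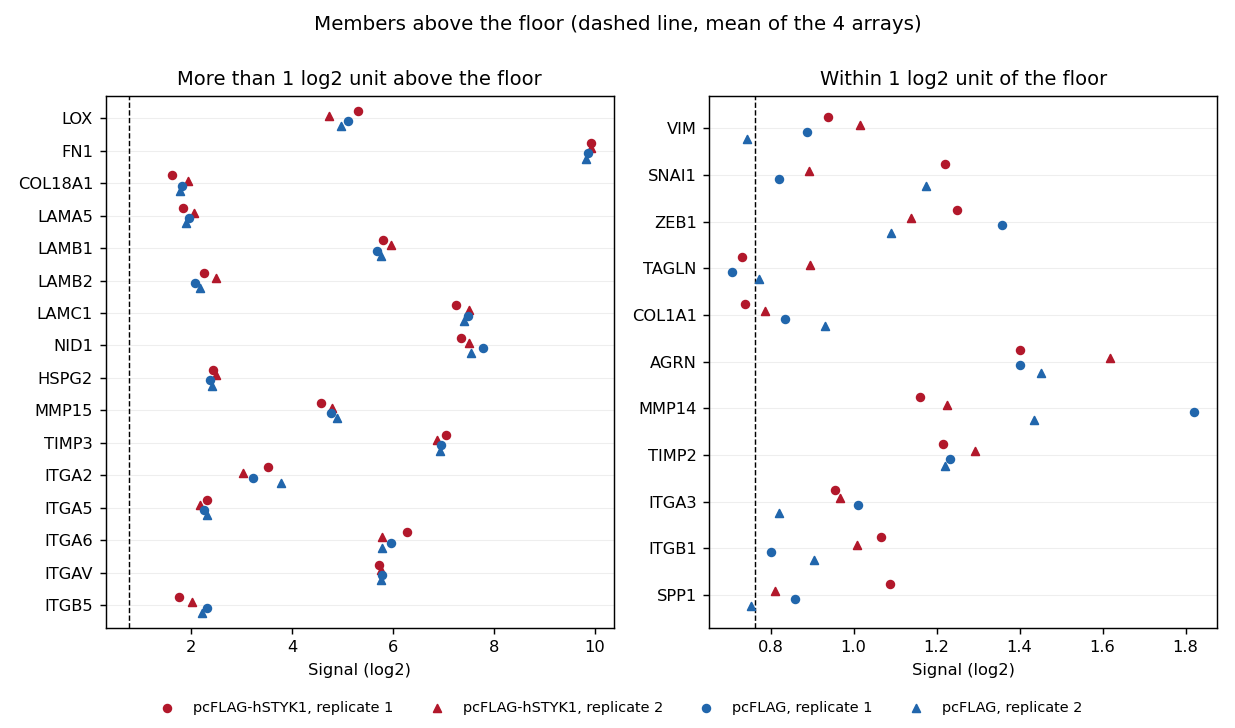
Signal (log2) of the 27 members above the floor on each array, with 16 that exceed it by more than 1 log2 unit on the left and 11 within 1 log2 unit on the right; red marks are pcFLAG-hSTYK1, blue marks are pcFLAG, circles replicate 1 and triangles replicate 2, and the dashed line is the mean floor of 0.76. Red and blue marks interleave for most genes, and MMP14 and ITGB5 are among those whose 2 red marks lie left of both blue marks.

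Interstitial matrix genes split into a pair far above the floor and a collagen group at it. FN1, fibronectin, the glycoprotein that alpha5 and alphaV integrins bind, read 9.92 and 9.91 on the pcFLAG-hSTYK1 arrays and 9.86 and 9.81 on the pcFLAG arrays. Its groups did not overlap, yet the difference was 0.08 (SE 0.08), or 1.06-fold (limma, adjusted p = 0.98). LOX, lysyl oxidase, which crosslinks collagen and elastin, read 5.30 and 4.74 against 5.11 and 4.98. The pcFLAG-hSTYK1 replicates enclosed both pcFLAG values, so LOX differed more within that group than between the groups (difference −0.02, SE 0.21).

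The measured fibrillar collagens among the members gave little signal. COL2A1, of type II collagen and not a member, was well above the floor. It read 4.72 and 4.72 on the pcFLAG-hSTYK1 arrays and 4.75 and 4.81 on the pcFLAG arrays. COL1A1, a chain of type I collagen, read 0.74 and 0.79 on the pcFLAG-hSTYK1 arrays, against 0.83 and 0.93 on the pcFLAG arrays. The first of these values was under its array's floor, and the difference was −0.12 (SE 0.09). Its partner chain COL1A2 lay between 0.54 and 0.75, and COL5A1, of type V collagen, between 0.50 and 0.67. SPARC, a collagen-binding matrix protein, lay between 0.54 and 0.70, so COL1A2, COL5A1 and SPARC were under the floor on all 4 arrays. LOXL2, a relative of LOX, exceeded its array's floor on replicate 2 of each group, at 0.80 in pcFLAG-hSTYK1 and 0.79 in pcFLAG.

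Basement membrane genes were above the floor for 8 of 11 members, as many as among the measured integrins and matrix ligands or receptors. The laminin chains LAMB1 and LAMC1, which join an alpha chain in the laminin trimer, were both more than 1 log2 unit above it. LAMB1 read 5.79 and 5.96 on the pcFLAG-hSTYK1 arrays and 5.67 and 5.75 on the pcFLAG arrays, a difference of 0.16 (SE 0.10). LAMC1 read 7.24 and 7.51 against 7.49 and 7.41, a difference of −0.08 (SE 0.12). The groups did not overlap for LAMB1 and overlapped for LAMC1.

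LAMB2, a beta chain that can take the place of LAMB1, had the largest positive difference among the members above the floor. It read 2.25 and 2.49 on the pcFLAG-hSTYK1 arrays and 2.07 and 2.16 on the pcFLAG arrays, without overlap. The difference was 0.26 (SE 0.12) and a 95% interval of −0.05 to 0.56 (limma, unadjusted p = 0.0836, adjusted p = 0.98). The gap between its pcFLAG-hSTYK1 replicates was 0.24, close to the difference itself. Without pcFLAG-hSTYK1 replicate 2 the difference was 0.14, and without any 1 of the 4 arrays it ranged from 0.14 to 0.37.

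NID1, or nidogen, which ties laminin to type IV collagen, had the opposite sign. It read 7.34 and 7.50 on the pcFLAG-hSTYK1 arrays and 7.79 and 7.54 on the pcFLAG arrays. The groups did not overlap, with a difference of −0.25, an SE of 0.13 and a 95% interval of −0.57 to 0.08. The nearest arrays of the groups, both replicate 2, were 7.50 and 7.54, so pcFLAG replicate 1 stood highest and carried much of the difference. Without that array the difference was −0.12.

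The remaining basement membrane genes above the floor differed by less than 0.1. HSPG2, the heparan sulfate proteoglycan perlecan, read 2.43 and 2.48 on the pcFLAG-hSTYK1 arrays and 2.36 and 2.40 on the pcFLAG arrays, without overlap (difference 0.07, SE 0.09). AGRN, the proteoglycan agrin, read 1.40 and 1.62 against 1.40 and 1.45. LAMA5, the alpha chain of many epithelial laminins, read 1.83 and 2.05 against 1.96 and 1.90, and COL18A1, the collagen from which endostatin is cut, read 1.62 and 1.94 against 1.81 and 1.77. In LAMA5 and COL18A1 the pcFLAG-hSTYK1 replicates enclosed both pcFLAG values.

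Most basement membrane genes above the floor read highest on the same array, though their full ordering of the arrays was not shared. Their groups did not overlap for 4 of the 8 above the floor, 3 higher and 1 lower, or 50% against 33.0% of genes above the floor. Of the 8 above the floor, 7 read highest on pcFLAG-hSTYK1 replicate 2, where 23.0% of all genes above the floor did, and NID1 was the exception. The pattern was not particular to this class, as 6 of 8 hepatocyte and liver cancer markers also read highest on that array. On pcFLAG-hSTYK1 replicate 1, 5 of the 8 read lowest, against 23.0% of all genes above the floor. Their mean deviation from each gene's own mean was −0.09 on pcFLAG-hSTYK1 replicate 1 and 0.12 on replicate 2, against −0.01 and −0.03 on the pcFLAG arrays. The median gap was 0.22 between the pcFLAG-hSTYK1 replicates and 0.07 between the pcFLAG replicates. The class was singled out after its values were seen, and no test was made of the pattern.

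**Figure D3:**
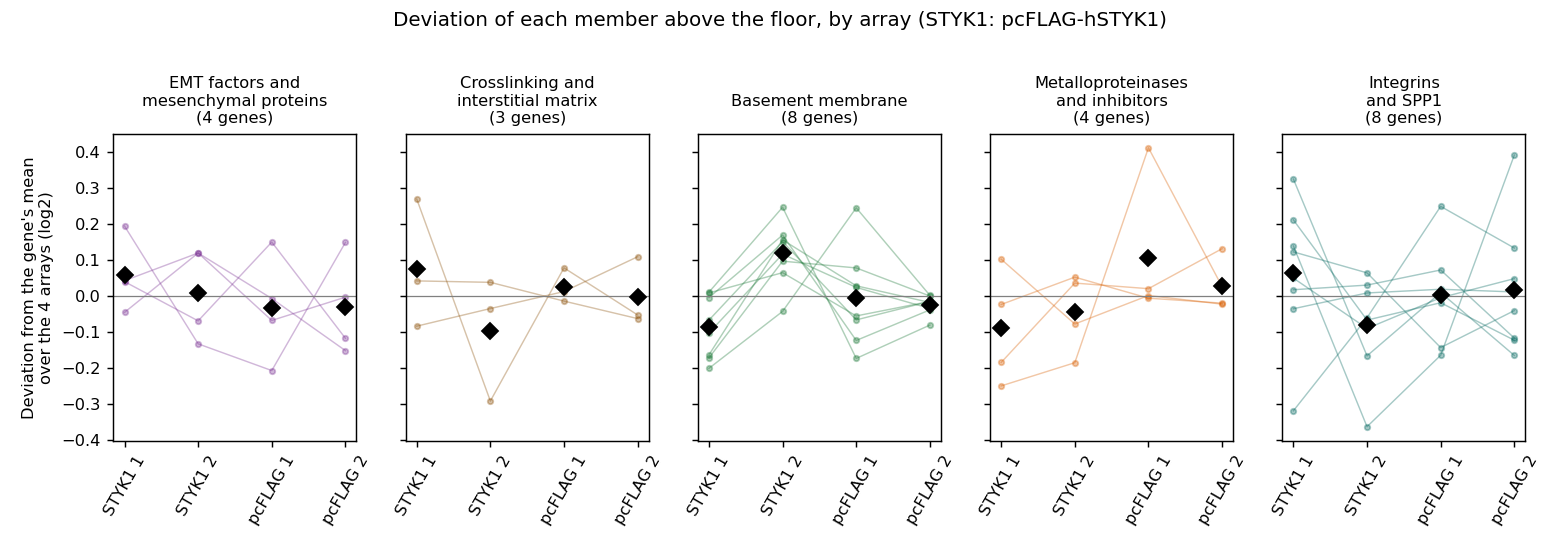
Deviation of each member above the floor from its own mean over the 4 arrays (log2), by array and role, with 1 line per gene and a black diamond at the mean of the class; STYK1 on the axis stands for pcFLAG-hSTYK1. In the basement membrane panel the diamonds stand at −0.09 and 0.12 on the pcFLAG-hSTYK1 arrays and close to 0 on the pcFLAG arrays.

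Type IV collagen, the network of the same sheet, was at background. COL4A1 read 0.60 and 0.59 on the pcFLAG-hSTYK1 arrays and 0.53 and 0.50 on the pcFLAG arrays, and its partner chain COL4A2 read 0.50 and 0.60 against 0.56 and 0.55. LAMA1, a laminin alpha chain of early embryos, read 0.55 and 0.50 against 0.48 and 0.43. All 3 were under the floor on each array, so no fold is given. COL4A1 and COL4A2 are transcribed away from each other from a common promoter region, shown here as a description. Whether that region bears on their signal was not tested. The RefSeq promoter window of COL4A2 (GRCh38.p14, chr13:110307034-110307333, plus strand) shares 226 bases, in capitals, with that of COL4A1 (chr13:110307108-110307407, minus strand).
COL4A2: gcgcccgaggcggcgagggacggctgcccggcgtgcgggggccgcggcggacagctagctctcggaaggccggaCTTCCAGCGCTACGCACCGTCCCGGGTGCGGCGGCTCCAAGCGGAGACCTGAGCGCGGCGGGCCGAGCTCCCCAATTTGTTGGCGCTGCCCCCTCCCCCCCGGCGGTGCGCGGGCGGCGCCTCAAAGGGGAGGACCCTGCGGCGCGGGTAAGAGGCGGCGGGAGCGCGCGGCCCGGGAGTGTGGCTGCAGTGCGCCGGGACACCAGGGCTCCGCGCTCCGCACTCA

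**Figure D4:**
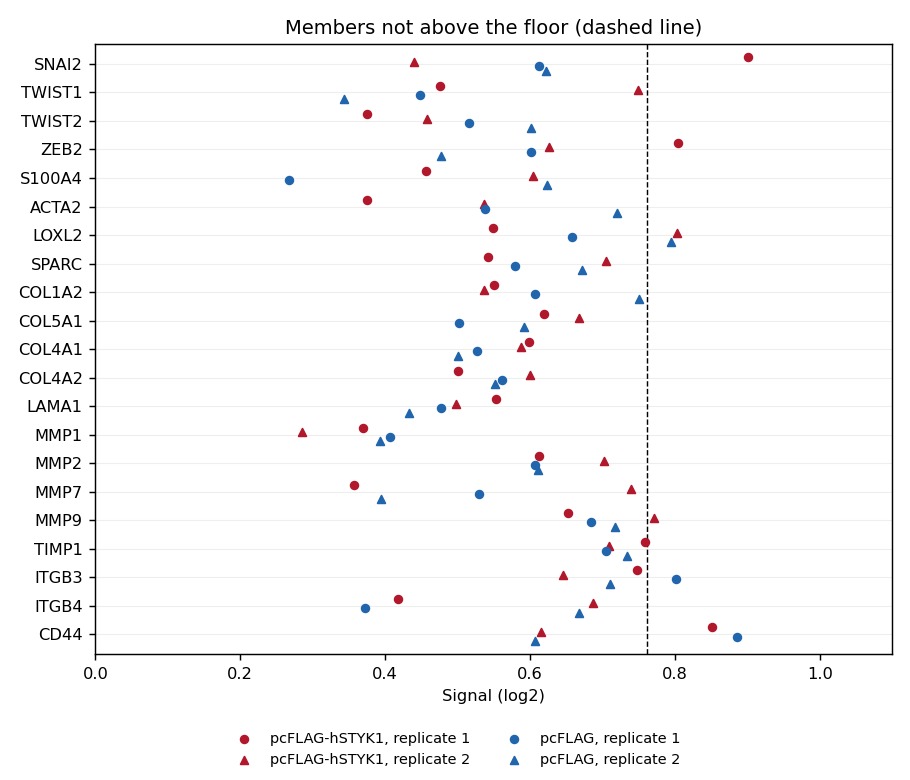
Signal (log2) on each array of the 21 members not above the floor, with the mean floor of 0.76 as a dashed line; red marks are pcFLAG-hSTYK1, blue marks are pcFLAG, circles replicate 1 and triangles replicate 2. Values run from 0.27 to 0.90, and 15 of the 21 genes lie under the floor of each array.

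MMP14, a membrane-anchored metalloproteinase that cuts collagen at the cell surface and activates MMP2, had the largest difference of the members above the floor. It read 1.16 and 1.22 on the pcFLAG-hSTYK1 arrays, against 1.82 and 1.44 on the pcFLAG arrays. The groups did not overlap, and the 2 pcFLAG values lay 0.39 apart while the pcFLAG-hSTYK1 values lay 0.06 apart. The difference was −0.44 (SE 0.15) and a 95% interval of −0.83 to −0.04, or 1.35-fold lower, and it did not pass (limma, unadjusted p = 0.0376, adjusted p = 0.98). It was −0.24 without pcFLAG replicate 1 (unadjusted p = 0.114) and −0.63 without pcFLAG replicate 2 (unadjusted p = 0.00805). Without pcFLAG-hSTYK1 replicate 1 or 2 it was −0.40 and −0.47, with unadjusted p-values of 0.138 and 0.101, so 3 of the 4 fits without an array missed the unadjusted threshold. Its mean signal lay 0.65 above the floor.

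The promoter window of MMP14 is shown as that of the member with the largest difference (RefSeq, GRCh38.p14, chr14:22836335-22836634, plus strand), with its 1 GC box, the motif of the Sp1 family, in capitals.
MMP14: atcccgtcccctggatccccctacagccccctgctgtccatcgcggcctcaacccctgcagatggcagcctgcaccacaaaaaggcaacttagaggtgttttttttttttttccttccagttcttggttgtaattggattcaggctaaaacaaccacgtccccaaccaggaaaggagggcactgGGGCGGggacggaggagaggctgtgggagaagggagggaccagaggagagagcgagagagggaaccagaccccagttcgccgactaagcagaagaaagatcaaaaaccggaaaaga

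Of the members 33 had such windows, each 300 bases long, and 49 windows in all. The GC box (GGGCGG, both strands) was found in 35 of the 49, or 71.4%, against 45% of all 35116 windows. The E-box that SNAI and ZEB factors bind (CACCTG, both strands) was found in 10 of the 49, or 20.4%, against 20.6% of all windows. An AP-1 site (TGANTCA, both strands) was found in 2 windows, those of ITGA5 and MMP7, against 7.71% of all windows. The 35116 windows belong to 27305 genes, and windows of 1 gene can overlap, as those of COL5A1 do. These shares therefore count some genes more than once, and no share by gene was computed over all windows. None of the 3 motifs contains another, and a match describes the letters of the window only.

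MMP15, another membrane-anchored metalloproteinase, read 4.57 and 4.79 on the pcFLAG-hSTYK1 arrays and 4.77 and 4.89 on the pcFLAG arrays, a difference of −0.15 (SE 0.12). The groups overlapped by the narrow margin between 4.79 and 4.77. The secreted enzymes were at background: MMP1, the interstitial collagenase, lay between 0.28 and 0.41, and MMP2 and MMP9, the gelatinases, lay between 0.61 and 0.70 and between 0.65 and 0.77. MMP7, matrilysin, lay between 0.36 and 0.74. These 4 were under the floor on each array.

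Of the inhibitors, TIMP3, which binds to the matrix, read 7.05 and 6.87 on the pcFLAG-hSTYK1 arrays and 6.95 and 6.92 on the pcFLAG arrays. The difference was 0.02 (SE 0.10), and the groups overlapped. TIMP2, which also takes part in the activation of MMP2 by MMP14, read 1.22 and 1.29 against 1.23 and 1.22, a difference of 0.03 (SE 0.09). TIMP1 read 0.76 and 0.71 against 0.71 and 0.73 and was above its array's floor on pcFLAG-hSTYK1 replicate 1 alone. The 95% interval of the TIMP3 difference was −0.24 to 0.29.

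ITGB5, the beta chain that pairs with alphaV to bind vitronectin, was the other member with an unadjusted p under 0.05. It read 1.75 and 2.01 on the pcFLAG-hSTYK1 arrays, against 2.32 and 2.20 on the pcFLAG arrays, without overlap. The difference was −0.38 (SE 0.12) and a 95% interval of −0.71 to −0.06, or 1.30-fold lower, and it did not pass (limma, unadjusted p = 0.0302, adjusted p = 0.98). It was −0.25 without pcFLAG-hSTYK1 replicate 1 and −0.51 without pcFLAG-hSTYK1 replicate 2, with unadjusted p-values of 0.117 and 0.0184. Without pcFLAG replicate 1 or 2 it was −0.32 and −0.44, with unadjusted p-values of 0.130 and 0.0632, so here too 3 of the 4 fits missed the unadjusted threshold. Its partner chain ITGAV read 5.72 and 5.76 against 5.77 and 5.76. The nearest ITGAV values of the groups were equal to 2 decimals, and its difference was −0.03 (SE 0.08).

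ITGB1, the beta chain shared by the collagen, laminin and fibronectin receptors, was dim on this probe set. It read 1.07 and 1.01 on the pcFLAG-hSTYK1 arrays and 0.80 and 0.90 on the pcFLAG arrays, above the floor of each array. The groups did not overlap, with a difference of 0.19, an SE of 0.09 and a 95% interval of −0.05 to 0.43 (limma, unadjusted p = 0.102, adjusted p = 0.98). ITGB3 and ITGB4, the beta chains of the alphaVbeta3 and alpha6beta4 receptors, were not above the floor. ITGB3 exceeded it on pcFLAG replicate 1 alone, at 0.80, and ITGB4 on no array.

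The alpha chains above the floor overlapped between the groups, apart from ITGAV. ITGA6, a laminin receptor chain, read 6.27 and 5.78 on the pcFLAG-hSTYK1 arrays and 5.96 and 5.78 on the pcFLAG arrays, with 0.49 between the first 2 and a difference of 0.16 (SE 0.19). ITGA2, a collagen receptor chain, read 3.52 and 3.02 against 3.21 and 3.77, a difference of −0.23 (SE 0.26), the widest among the members above the floor. ITGA5, the fibronectin receptor chain, read 2.31 and 2.17 against 2.25 and 2.30, a difference of −0.04 (SE 0.10). ITGA3, a laminin receptor chain, read 0.96 and 0.97 against 1.01 and 0.82.

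The last pair are matrix ligand and receptor. SPP1, or osteopontin, a secreted ligand of alphaV integrins and CD44, read 1.09 and 0.81 on the pcFLAG-hSTYK1 arrays and 0.86 and 0.75 on the pcFLAG arrays, the last under that array's floor, a difference of 0.14 (SE 0.13) and overlapping groups. CD44, a receptor for hyaluronan, read 0.85 and 0.62 against 0.89 and 0.61 and was above the floor on replicate 1 of each group.

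**Figure D5:**
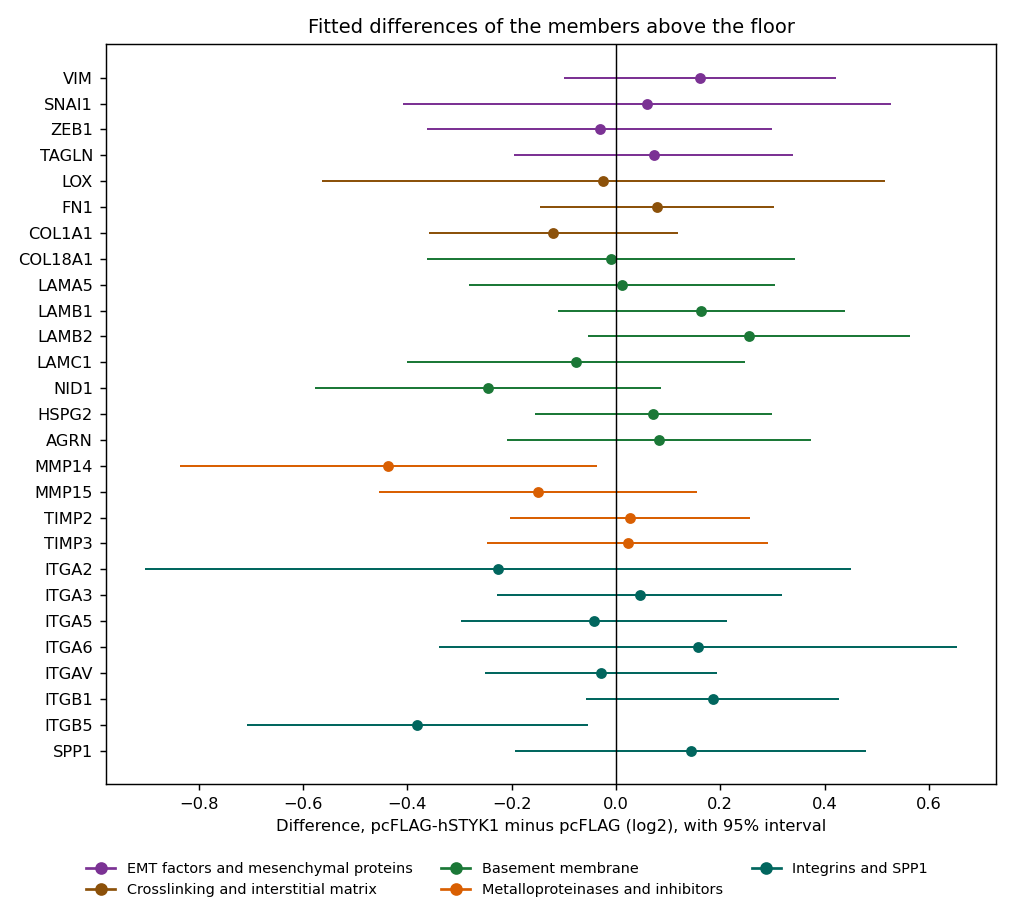
Fitted difference (log2, pcFLAG-hSTYK1 minus pcFLAG) of each of the 27 members above the floor, as a point with its 95% interval, coloured by role. The intervals of MMP14 and ITGB5 end at −0.04 and −0.06 and those of the other 25 genes include 0, before any adjustment for the number of tests.

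Seen against the spread of the replicates, the difference between the groups exceeded the gap within both groups for 9 of the 27 members, or 33.3%, where 21.9% of genes above the floor did so. These were VIM, FN1, COL1A1, LAMB2, NID1, HSPG2, MMP14, ITGB1 and ITGB5, of which 5 were higher and 4 lower. The gap between the pcFLAG-hSTYK1 replicates was wider than that between the pcFLAG replicates for 17 of the 27, or 63%, against 52.1% of genes above the floor. For all 27, the mean deviation lay between −0.005 and 0.01 on each of the 4 arrays.

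Other genes of the same systems were counted from a list of 99, of which 92 were measured and 45 were above the floor. Of the 92, 0 passed the adjusted threshold and 5 met an unadjusted p under 0.05, all lower, a share of 5.43% against 3.72% of all named genes (1.93% lower). Of these 5, COL6A2, CDH2 and KRT19 were above the floor, while MMP12, a macrophage elastase, and GRHL2, an epithelial transcription factor, were not. Among other integrin chains 0 of 15 were above the floor, and among other laminin and basement membrane genes 0 of 5. Integrin adaptors and focal adhesion genes were above it for 16 of 19, with SRC, a kinase at adhesion sites, at 2.41 and 2.19 against 1.74 and 2.19 (difference 0.34, SE 0.18) and PARVA, which links integrins to actin, at 1.21 and 1.18 against 1.45 and 1.33 (difference −0.20, SE 0.09). The SRC difference was 0.11 without pcFLAG replicate 1 and 0.56 without pcFLAG replicate 2.

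Other collagens and their assembly enzymes were above the floor for 12 of 24. COL6A2, of type VI collagen, read 0.76 and 0.99 on the pcFLAG-hSTYK1 arrays and 1.16 and 1.20 on the pcFLAG arrays, a difference of −0.31 (SE 0.11), and COL5A2, of type V collagen, differed by −0.20. Other metalloproteinases and inhibitors were above it for 7 of 17, among which MMP24 and MMP11 had the largest differences, −0.13 and −0.12. Of 12 measured cadherins and epithelial genes 10 were above it, 5 with a difference above 0 and 5 below. CDH1, E-cadherin, read 6.02 and 5.88 on the pcFLAG-hSTYK1 arrays and 6.03 and 5.99 on the pcFLAG arrays. Its groups overlapped (difference −0.06, SE 0.10). EPCAM, an epithelial adhesion protein, was higher by 0.18 (SE 0.12), without overlap. CDH2, N-cadherin, the cadherin of hepatocytes and of mesenchymal cells, read 5.38 and 5.58 on the pcFLAG-hSTYK1 arrays and 5.86 and 5.74 on the pcFLAG arrays (difference −0.32, SE 0.11), and the keratin KRT19 differed by −0.26 (SE 0.09). COL6A2, CDH2 and KRT19 did not pass (limma, adjusted p = 0.98).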

How the data were processed

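Values came from 1 deposited table with a log2 signal per probe set for 4 arrays. The authors named the Transcriptome Analysis Console per the submitters' processing notes; no version, summarization or normalization method is stated there. The log base was inferred: as natural logarithms the largest values would reach 82224 to 84779, above the 65535 of a 16-bit scanner. Array medians were 0.615 to 0.629, so no further normalization was applied. Nothing marks batches, detection or separate cultures, so p-values rest on a spread between samples that may be technical, and the number of arrays limits the precision. Replicates held different values.

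Probe sets were named from the platform annotation: 23871 had 1 symbol, 1842 several and 27904 none. RefSeq (GRCh38.p14) updated 90 symbols. Differences were fitted in R 4.3.3 by limma 3.58.1, with lmFit on the group and eBayes without a trend, two-sided, Benjamini-Hochberg over all 53617 probe sets, tested on simulated data. The model had 2 residual degrees of freedom and a prior of 2.71. Members, lists and tests were chosen with earlier results of these data known. Named were STYK1, all members above the floor, and up to 2 other genes above it per list, by size of difference. DES, CDH1, EPCAM, KRT8, KRT18, COL2A1, other markers and the motifs were picked after values were seen. Alternatives were each array left out, the replicate number as a block, quantile and median scaling, a filter at the floor, an intensity trend, averaged probe sets and other floors.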

Additional observations from a re-analysis of the deposited data

How the results depend on the processing

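All alternatives were planned. In each of the 10 alternative fits, 0 members passed the adjusted threshold (leaving out 1 array, lowest 0, highest 0), as in the fit reported. The 2 members at an unadjusted p under 0.05 became 0 with the replicate block and 0 with the filter at the floor, where MMP14 had an unadjusted p of 0.0544 and 0.0568 and ITGB5 of 0.0584 and 0.0513. With 1 array left out 0 to 2 members met that p, never MMP14 and ITGB5 together: 0 without pcFLAG replicate 1, MMP14 without pcFLAG replicate 2, TWIST1 and LAMB2 without pcFLAG-hSTYK1 replicate 1, and ITGA6 and ITGB5 without pcFLAG-hSTYK1 replicate 2. STYK1 differed by 7.19 in the fit reported and 6.96 to 7.42 with 1 array left out, where its call was lost each time; with the replicate block it was 7.19 with an adjusted p of 0.0637. The correlation of deviations between arrays of the same number was −0.044, and the labels do not say that a number marks a shared culture. Fits with 3 arrays assume that the lone array varies like the other group. The median difference of members above the floor was 0.0039 to 0.040 with 1 array left out, −0.0020 with quantile normalization and −0.0090 with the floor at the 99th percentile. There 21 members were above it, and 47 with the floor at the median. The cause of these shifts was not tested, except that the replicate block leaves 1 residual degree of freedom. Of the 27 members above the floor, 13 kept their sign in all alternatives, MMP14, ITGB5, LAMB2 and NID1 among them. With quantile normalization LAMA5 turned to −0.031, TIMP2 to −0.0020 and TIMP3 to −0.0016. With 1 array left out differences crossed 0 for 14 members: SNAI1 (−0.12 to 0.24), ZEB1 (−0.16 to 0.10), TAGLN (−0.010 to 0.16), LOX (−0.30 to 0.26), COL18A1 (−0.17 to 0.15), LAMA5 (−0.10 to 0.12), LAMC1 (−0.21 to 0.058), AGRN (−0.026 to 0.19), TIMP2 (−0.011 to 0.065), TIMP3 (−0.067 to 0.11), ITGA2 (−0.50 to 0.053), ITGA3 (−0.048 to 0.14), ITGA5 (−0.11 to 0.028) and ITGA6 (−0.088 to 0.40). MMP11, which is not a member, did so too (−0.25 to 0.0062).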

Other observations

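Probe sets other than the brightest existed for 2 members and stayed out of the comparison. The dimmer one of CD44 read 0.67 and 0.77 on the pcFLAG-hSTYK1 arrays and 0.55 and 0.67 on the pcFLAG arrays, a difference of 0.11, where the brighter one differed by −0.01. The dimmer one of MMP2 read 0.34 and 0.40 on the pcFLAG-hSTYK1 arrays and 0.27 and 0.43 on the pcFLAG arrays. All of these values lay under the floor of their arrays.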
